A study of Mus musculus with 14 samples.

Results

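Microglia of retinas contralateral to a microbead injection were compared with microglia of sham-injected retinas. The groups were taken from the sample labels, which place 7 of the 14 libraries of the study here, 3 contralateral and 4 sham. All mice were wild type C57BL/6 aged 12 weeks, and each library held microglia of a single retina, sorted as CD11b+, Ly6c- and Fcrls+ cells. The deposited table is named for SMART-Seq2, which copies whole transcripts from little RNA. Per the labels, 100 to 600 cells were sorted from a retina and lysed at 100 to 300 cells per 5 µl. The labels call the first group contralateral to a microbead injection and the second sham injection, with no word on what was injected in sham or on any handling of the contralateral eye. The 4 naive libraries (treatment none) serve as a further reference, and the 3 microbead libraries entered the shared estimate of spread. The time after injection and the mouse behind each retina are not given in the sources used here. The p-values therefore measure the spread between these libraries.

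Microglia are tissue macrophages that settle in the retina during development. In health they carry a surveying program built on receptors such as Csf1r, Cx3cr1 and P2ry12, and in degenerating tissue they can pass into the MGnD or disease-associated state, led by Apoe and Trem2. Microbeads in the front of the eye block fluid outflow and raise eye pressure, a model of glaucoma, and the fellow eye is commonly used as an internal control, as sham injection is. Mitochondria hold a small genome of their own that encodes respiratory chain subunits and ribosomal RNA, transcribed separately from nuclear genes.

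Base composition differed with the levels described below, so the start of the coding sequence is shown for 2 mitochondrial genes that stood lower in contralateral microglia and for the rod gene that stood highest above sham. The first 120 coding bases (GENCODE M21, GRCm38, coding strand) are printed with G and C in capitals.
mt-Co2: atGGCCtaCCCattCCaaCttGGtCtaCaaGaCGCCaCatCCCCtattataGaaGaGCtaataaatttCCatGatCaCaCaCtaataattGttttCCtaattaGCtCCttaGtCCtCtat
mt-Nd1: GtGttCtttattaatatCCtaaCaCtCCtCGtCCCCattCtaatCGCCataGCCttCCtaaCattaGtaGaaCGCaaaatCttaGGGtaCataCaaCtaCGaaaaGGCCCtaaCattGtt
Sag: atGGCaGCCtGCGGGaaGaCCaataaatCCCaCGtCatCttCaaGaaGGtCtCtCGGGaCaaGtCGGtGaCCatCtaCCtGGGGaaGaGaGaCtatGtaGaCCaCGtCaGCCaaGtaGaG
mt-Co2 lies on chromosome M from 7013 to 7696 and mt-Nd1 from 2751 to 3707, both on the plus strand. Sag lies on chromosome 1 from 87803680 to 87845158, also on the plus strand. The GC content of the whole coding sequence was 38.8% for mt-Co2, 37.6% for mt-Nd1 and 52.8% for Sag.

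The contralateral libraries differed from each other more than the sham libraries did. They held 6.03, 7.60 and 13.996 M reads on genes, and the sham libraries 8.502 to 13.56 M. Contralateral 2 had reads in 10306 genes, against 13472 and 16531 in the other contralateral libraries and 14587 to 15256 in sham. It had no read in 430 of 5333 genes that reached 10 CPM (reads of a gene scaled to the library's size) in all other 6 libraries, where contralateral 1 had 16 such genes of 4544 and the remaining libraries at most 4. Its mean Spearman correlation with the sham libraries across genes was 0.667, against 0.770 for contralateral 1, 0.865 for contralateral 3 and 0.842 to 0.851 for each sham library with the others. By the correlation contralateral 3 was as near to the sham libraries as they were to each other, though it had reads in more genes than any of them. Results are therefore given also for contralateral 3 alone, a choice made after the data had been seen.

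Levels were higher for genes of higher GC content in contralateral 1 and 2, with a smaller opposite trend in contralateral 3. Each gene's log2 CPM was set against its naive mean, and the median over 2754 genes above 54% GC was subtracted from that over 767 genes at or below 42%. The difference was -2.03 in contralateral 1 and -1.25 in contralateral 2, so AT-rich transcripts were low there. It was 0.23 in contralateral 3, above all sham and naive libraries, between -0.001 and 0.17 in sham and between -0.17 and 0.16 in naive libraries. The median log2 fold change (contralateral against sham) ran from -0.84 over genes at or below 38% GC to 0.40 over genes above 58%. Values with this trend removed are given relative to the median of all genes, which the removal itself moved from -0.04 to 0.22. Levels differed with transcript length too. The median over 935 genes of at most 1000 bases minus that over 1435 genes above 4000 was 0.43, 1.06 and -0.28 in contralateral 1 to 3. In sham libraries this length difference was between -0.05 and 0.14.

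**Figure D1:**
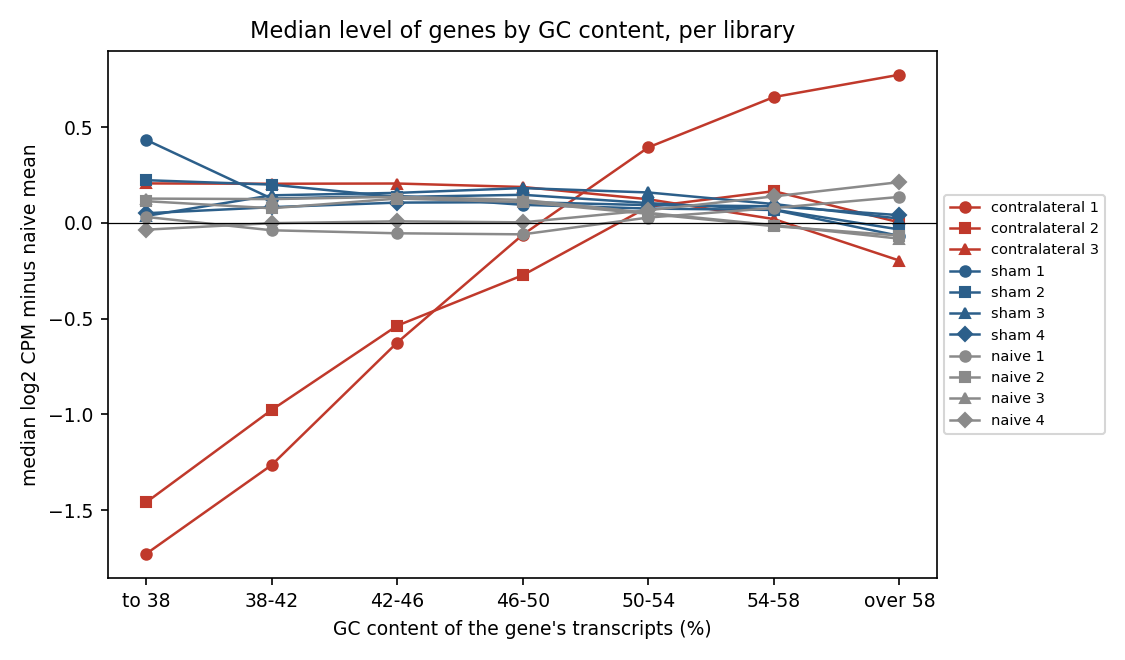
Median log2 CPM minus the naive mean (vertical axis) over genes of at least 10 CPM in 7 bins of transcript GC content (horizontal axis, percent), 1 line per library of the contralateral (red), sham (blue) and naive (grey) groups. Contralateral 1 and 2 run from -1.73 and -1.46 in the lowest bin upwards, while contralateral 3 lies between -0.20 and 0.21 in all bins.

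No gene passed the test. Of 14279 genes, 0 (percent called 0) had a Benjamini-Hochberg adjusted p under 0.05 by edgeR (quasi-likelihood F test, two-sided), and the lowest adjusted p of a named gene was 0.637, for mt-Co2. At an unadjusted p under 0.05 there were 694 genes (4.86%), 398 higher (2.79%) and 296 lower (2.07%) in contralateral. Among the 9327 genes of at least 10 CPM in either group, every contralateral library lay above every sham library for 253 (2.71%) and below for 412 (4.42%), and over all genes tested these shares were 2.04% and 3.88%. DESeq2's Wald test called 80 genes (0.56%), 25 higher and 55 lower, of which 42 had no read in any contralateral library and 14 none in any sham library, and 6.6% of genes had an unadjusted p under 0.05 there. With no filter on low counts edgeR's test called 22 of 25656 genes (0.0857%, with 6.21% at an unadjusted p under 0.05), of which 8 were mitochondrial and lower. limma voom with quality weights called 0, with 520 at an unadjusted p under 0.05. Without contralateral 3, edgeR's test called 21 genes (0.138%, with 11.9% at an unadjusted p under 0.05), 20 of them lower, and 9 of those 20 were transcripts of the mitochondrial genome. Fold changes below are therefore values that did not pass, unless a setting is named.

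Transcripts of the mitochondrial genome stood lower in contralateral microglia. The list held the 13 protein-coding genes, and mt-Nd4l, a complex I subunit, had no read in any of the 7 libraries. All 12 others had a fold change below 0, and their median log2 fold change was -1.67, beside -0.04 for all genes. For 11 of the 12 every contralateral library lay below every sham library, where 4.42% of genes of at least 10 CPM did so, and 8 had an unadjusted p under 0.05 as lower, where 2.07% of all genes did. The exception was mt-Co3, whose groups overlapped.

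mt-Co2, which encodes a core subunit of cytochrome oxidase, had the lowest p of all named genes. It stood at 30.8, 94.8 and 166.9 CPM in contralateral 1, 2 and 3, and at 812, 504, 517 and 472 CPM in sham 1 to 4. Its log2 fold change was -2.56 (SE 0.48, adjusted p = 0.637 in edgeR's test). The naive libraries, at 422.5 to 665 CPM, lay with sham, so all 3 contralateral retinas were below all 8 others of these groups. mt-Co2 passed an adjusted p of 0.05 in 3 of 21 alternative settings (DESeq2's Wald test, no filter on low counts, and without contralateral 3), and its adjusted p over the settings ran from 1.3e-09 to 1.

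mt-Nd1, a membrane subunit of complex I, was at 75.7, 94.6 and 492 CPM against 618 to 901 in sham (log2 fold change -1.70, SE 0.49). mt-Atp6, part of the proton channel of ATP synthase, was at 90.5, 123.9 and 470 CPM against 522 to 948 (-1.67, SE 0.45). mt-Cytb, the mitochondrially encoded subunit of complex III, was at 166, 203.5 and 521.5 CPM against 651 to 964 (-1.33, SE 0.39). In each of these genes contralateral 1 and 2 were several times below sham and contralateral 3 was nearer to sham, below its lowest library. The complex I genes mt-Nd2 (-1.66), mt-Nd4 (-1.23) and mt-Nd5 (-1.72) and the oxidase gene mt-Co1 (-1.60) had the same order, all with groups that did not overlap. mt-Nd3 had no read in contralateral 1 and 2 and 10.8 CPM in contralateral 3, against 13.4 to 42.3 in sham. mt-Nd6 (log2 fold change -1.19) and mt-Atp8 (-1.09) were low in all libraries, at 3.31 to 10.4 and 5.13 to 9.60 CPM in contralateral and at 12.6 to 17.6 and 11.7 to 19.1 CPM in sham. The ribosomal RNA genes mt-Rnr1 (-1.26, SE 0.54) and mt-Rnr2 (-1.25, SE 0.34) were also below every sham library in all contralateral libraries.

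As a share of all reads, the 13 protein-coding genes took 0.0612% in contralateral 1 (95% Wilson interval 0.0593 to 0.0632), 0.0899% in contralateral 2 (0.0878 to 0.0920) and 0.404% in contralateral 3 (0.400 to 0.407), with intervals that cover counting error only. The sham libraries ran from 0.520 to 0.771% and the naive libraries from 0.391 to 0.555%. By this share contralateral 3 was below sham and inside the naive range, whereas by summed CPM it was below both, at 3613 against 4748 to 7310 in sham and 3743 to 5482 in naive. Per length, by the authors' FPKM, the sham mean of the listed genes with reads ran from 70.4 for mt-Nd6 to 1976 for mt-Atp6, so the low contralateral values covered strongly and weakly expressed transcripts. Parts of the mitochondrial genome have near-identical nuclear copies, so the assignment of some of these reads is uncertain.

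**Figure D2:**
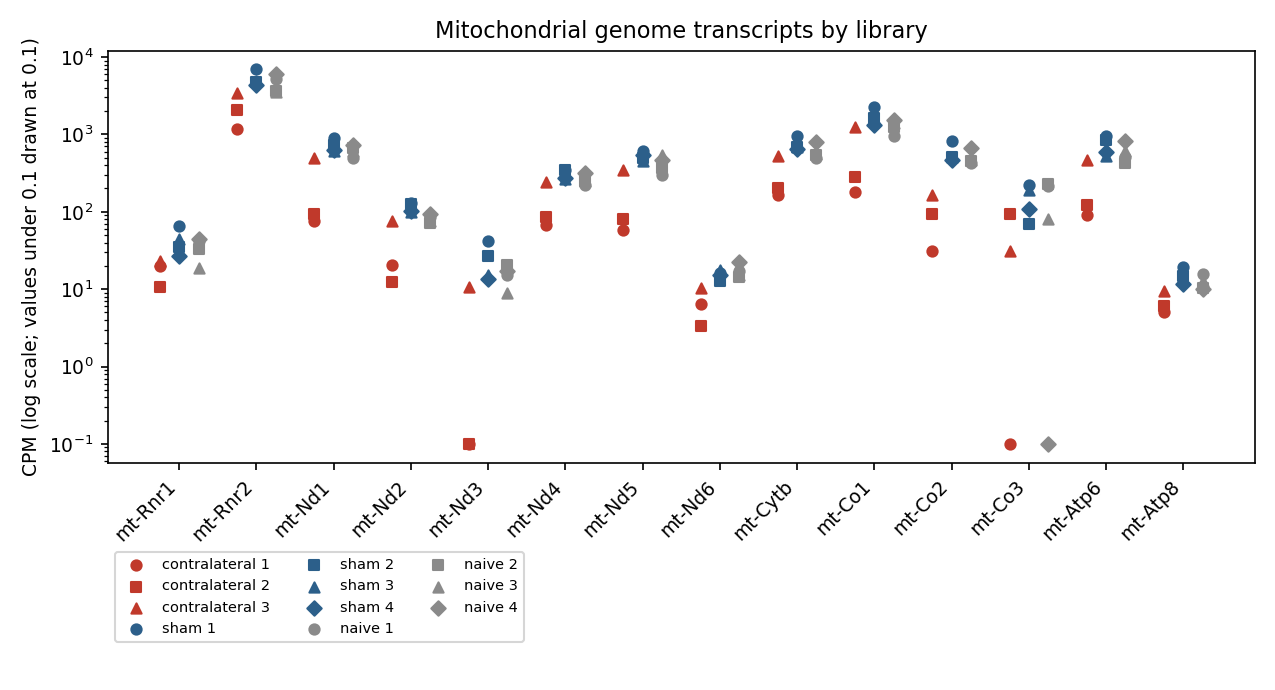
Levels of 12 protein-coding and 2 ribosomal RNA transcripts of the mitochondrial genome (horizontal axis) in CPM on a log axis, 1 point per contralateral (red), sham (blue) and naive (grey) library, with values under 0.1 drawn at 0.1. For each transcript but mt-Co3 the red points lie below all blue points, with contralateral 3 (red triangle) the nearest to them.

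These transcripts are AT-rich, at 31.9 to 39.9% GC, and the libraries in which they were lowest are those with the GC trend. The 283 nuclear genes of at least 10 CPM in that GC range had a median log2 fold change of -0.68, and 11.3% of them had all contralateral libraries below all sham libraries. With the GC trend removed, the mitochondrial median was -1.04 relative to all genes, with 6 of 12 at an unadjusted p under 0.05. On that scale mt-Co2 was at -1.88, mt-Nd1 at -1.30 and mt-Rnr2 at -0.24, and mt-Nd6 (-0.05) and mt-Rnr1 (-0.15) lay near all genes, while mt-Atp8 turned sign (0.35). In contralateral 3 alone, whose GC trend was small and in the other direction, all 12 were below every sham library, where 18.2% of genes of at least 10 CPM and 13.8% of the 283 nuclear genes were, with a median of -0.60. The median was -1.30 without contralateral 1, -1.30 without contralateral 2 and -2.79 without contralateral 3, so its size moved more than 1.5 times with contralateral 3. The part of base composition and of RNA quality in this difference was not tested beyond these values.

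Transcripts of rod photoreceptors stood higher in contralateral libraries. Rods are the light-sensing neurons and the most numerous cells of the mouse retina. All 24 listed rod genes were measured, 21 had a fold change above 0, where 48.3% of all genes did, and the median was 1.00. At an unadjusted p under 0.05 there were 4, all higher, and 6 did not overlap as higher, beside 2.79% and 2.04% of all genes. The difference was as large with the GC trend removed (0.98 relative to all genes) and 0.80 in contralateral 3 alone, where 14 of 24 lay above every sham library, beside 16.7% of genes.

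Sag encodes arrestin of rods, which ends the light response, and had the lowest p of the rod list. It stood at 375, 454.5 and 229 CPM in contralateral and at 66.9, 62.1, 44.5 and 95.6 CPM in sham (log2 fold change 2.39, SE 0.61, adjusted p = 0.963 in edgeR's test). The groups did not overlap, and the naive libraries spread from 26.6 to 268 CPM, across both. Sag passed in 2 of 21 alternative settings, with an adjusted p from 9.08e-04 to 1. Rom1, a disc membrane protein, was at 289, 293 and 152 CPM against 45.5 to 100.4 in sham (1.56, SE 0.69), Guca1a, a calcium sensor of guanylate cyclase, at 161, 180.4 and 34.4 against 19.0 to 49.3 (2.20, SE 0.79), and Pde6g, the inhibitory subunit of the phosphodiesterase, at 169, 148 and 78.8 against 44.7 to 81.2 (1.19, SE 0.49). Of these only Rom1 separated the groups in all libraries. The rod transducin gene Gnat1 stood at 1021, 480 and 477 CPM against 230 to 344.5 (1.13, SE 0.73), again with no overlap.

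Summed over the 24 genes, rod transcripts made 3259 to 4921 CPM in contralateral, 1301 to 2344 in sham and 538 to 4338 in naive libraries. The contralateral range thus lay above sham but overlapped that of the naive libraries, which was the wider. More rod material and more rod RNA per cell cannot be told apart in bulk libraries, nor can fewer cells of any type and less RNA per cell. With the mean of the rod list as a covariate, edgeR's test called 0 genes, with 733 at an unadjusted p under 0.05, and the mitochondrial median was -1.77.

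Marker lists of other retinal cells summed to less than the rod list, apart from Muller glia, whose sum was mostly Apoe. Of the cone list 5 of 12 genes were measured, among them the short-wave opsin gene Opn1sw, read in contralateral 1 and 3 (28.5 and 6.14 CPM) and in no sham library. The summed cone level was 273, 102 and 63.3 CPM in contralateral 1 to 3, 74.8 to 95.7 in sham and 50.4 to 141 in naive. By this sum contralateral 3 was below every sham library. Over the endothelial and pericyte list the summed level was 21.4 to 43.4 CPM in contralateral and 3.44 to 7.37 in sham, with 6.92 to 56.3 in naive. In that list 3 of 16 genes were measured, and the adhesion gene Pecam1 was at 32.9, 0.16 and 7.55 CPM against 0 to 2.72 in sham. For infiltrating monocytes and macrophages, 11 of 16 genes were measured with a median of -0.16 (-1.57 without contralateral 3, 0.16 without contralateral 1, 0.05 without contralateral 2 and 0.56 in contralateral 3 alone), and the summed level was 153 to 222 CPM in contralateral and 106 to 224.5 in sham. Their chemokine receptor Ccr2 was at 0, 0.16 and 20.6 CPM in contralateral and at 40.2 CPM in sham 2, with no read in the other sham libraries. The Muller glia and astrocyte list summed to 2232 to 7892 CPM in contralateral and 3664 to 5989 in sham, but without Apoe, which microglia also express, to 337 to 738 and 368 to 421 CPM. It had a median of 0.09 over 10 genes, while the astrocyte gene Gfap had no read. Hemoglobin and other red cell genes reached at most 2.35 CPM in sum. The part of rod, cone and vessel material in the differences of other genes was not tested beyond the covariate.

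The sort markers and most homeostatic genes overlapped between the groups. Itgam, which encodes CD11b, was at 374, 590 and 370 CPM in contralateral and 346.5 to 536 in sham, Fcrls at 477, 291.5 and 763 against 474 to 811, and Ly6c2 had no read in any of the 7. Tmem119 stood at 2640, 3302 and 2741 CPM against 2422 to 3082, Cx3cr1, the fractalkine receptor, at 5363, 5462 and 6072 against 4820 to 5822, and Csf1r, the receptor on which microglia depend for survival, at 6128, 6804 and 7211 against 5517 to 6925. All these ranges overlapped. P2ry12, a purinergic receptor that guides microglial processes, was at 628, 1424 and 2295 CPM against 2013 to 2184, so contralateral 1 and 2 were below every sham library and contralateral 3 above. At 39.0% GC it is among the AT-rich genes, and the part of base composition in its levels was not tested. The transcription factor gene Sall1 was at 792, 261 and 369 CPM against 347 to 429. Of 32 genes of the homeostatic list 20 had a fold change above 0, beside 48.3% of all genes, and the median was 0.09. At an unadjusted p under 0.05 there was 1, beside 4.86% of all genes.

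Stab1, Slco2b1 and Adgrg1 lay above every sham library in all contralateral libraries. Adgrg1, an adhesion receptor gene, did so narrowly, at 436.0, 727 and 479 CPM against 345.6 to 435.6. Stab1 encodes stabilin-1, a scavenger receptor of tissue macrophages that the border-associated macrophage list also holds, and stood at 680.5, 1009 and 446 CPM against 325, 327, 409 and 349.5 (log2 fold change 1.01, SE 0.28, adjusted p = 0.963 by edgeR). Naive libraries, at 319 to 425 CPM, lay with sham. In contralateral 3 alone the log2 fold change was 0.36, and without contralateral 2 it was 0.64. Summed over the border-associated macrophage list, contralateral had 800.5 to 1052 CPM and sham 427 to 643, most of it Stab1. The defining genes of these macrophages overlapped between groups: Mrc1 was at 3.99, 0 and 72.5 CPM against 14.6 to 77.1, Lyve1 at 6.28, 0 and 17.8 against 0 to 38.9, and Cd163 at 0, 0 and 45.1 against 0 to 8.04. Of 10 measured genes of the list, 7 lay above every sham library in contralateral 3, beside 16.7% of genes of at least 10 CPM, and 0 below. The list median was 0.61, with 1.21 in contralateral 3 alone and -0.41 without contralateral 3. Slco2b1, an organic anion transporter of microglia, was at 1710, 2307 and 1514 CPM against 1246 to 1345 in sham (0.51, SE 0.21), and naive libraries spanned 1118 to 1426.

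Genes of the MGnD state lay on both sides of 0. Of 34 measured, 13 had a fold change above 0 and 21 below, where 48.3% of all genes were above, and the median was -0.08. An unadjusted p under 0.05 was found for 1, beside 4.86% of all genes. Apoe, the lipid carrier that leads the state, was at 3947, 1494 and 7555 CPM in contralateral and 3268 to 5568 in sham, with 3472 to 7578 in naive, so the contralateral libraries lay on both sides. Trem2, the lipid-sensing receptor upstream of the state, stood at 2524, 2858 and 1357 CPM against 1601 to 1743 (log2 fold change 0.43, SE 0.23), and its sign turned in contralateral 3 alone (-0.28). Axl was at 160, 188 and 141 CPM against 139 to 165. Clec7a, a beta-glucan receptor gene, was at 43.9, 12.4 and 215 CPM against 143 to 304 (-1.29, SE 0.66). Itgax, which encodes CD11c, was at 22.2, 0 and 7.61 CPM against 22.97 to 61.4 (-2.12, SE 1.16), the only listed member below sham in all libraries, while naive libraries ran from 3.82 to 33.5. Spp1 had no read in the 7 libraries, and Gpnmb reached 2.21 CPM in contralateral 2 at most.

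**Figure D3:**
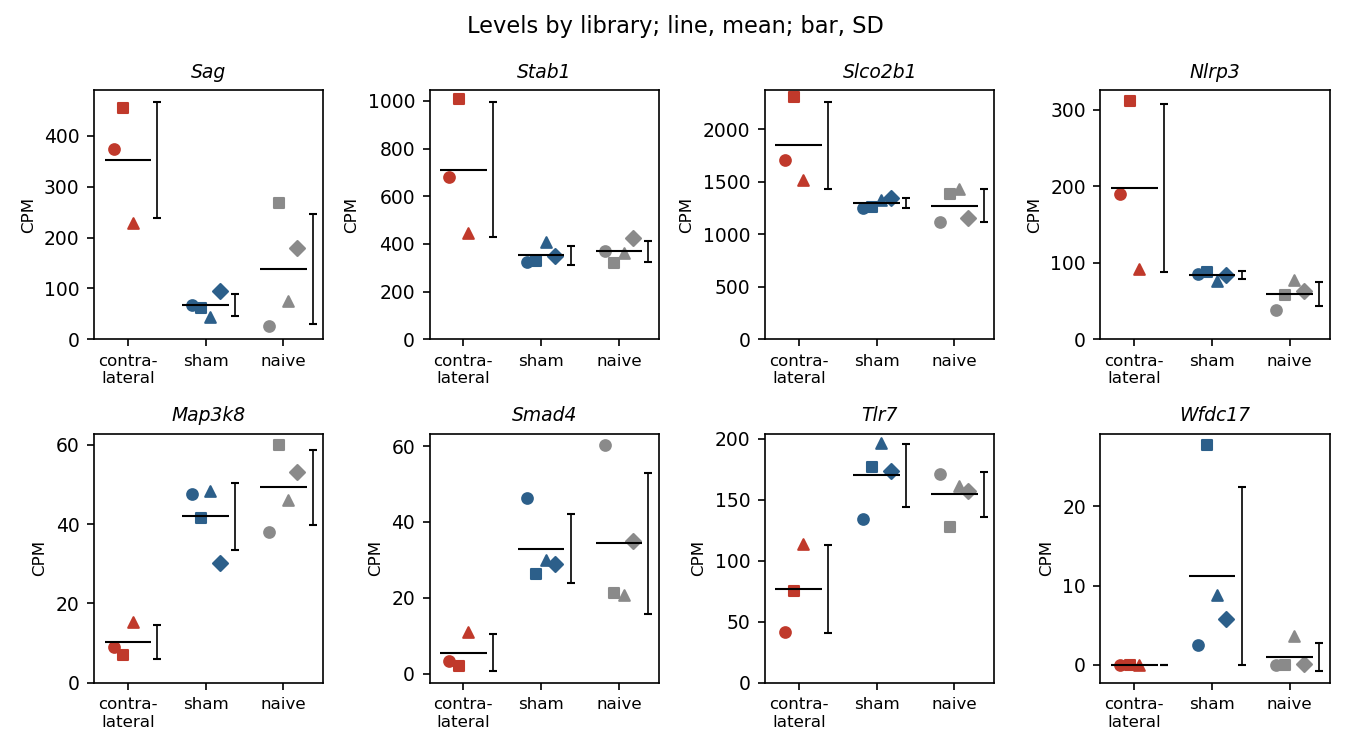
Levels of 8 named genes in CPM (vertical axes from 0) in each contralateral (red), sham (blue) and naive (grey) library, with lines at the group mean and bars of 1 SD. Sag, Stab1, Slco2b1 and Nlrp3 lie above sham and Map3k8, Smad4, Tlr7 and Wfdc17 below sham in all contralateral libraries.

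Among innate sensors and their signalling genes, differences went both ways. Nlrp3, the sensor of an inflammasome that activates interleukin-1, stood at 190.5, 312 and 91.9 CPM against 76.6 to 88.3 in sham (log2 fold change 1.24, SE 0.43, adjusted p = 0.963 by edgeR), with 0.15 in contralateral 3 alone. Il1b, the gene of an interleukin-1 cytokine, was at 0, 0 and 7.16 CPM against 7.08 to 31.1. Map3k8, the kinase TPL2 that links Toll-like receptors to ERK signalling, was at 8.94, 6.94 and 15.2 CPM against 47.5, 41.6, 48.3 and 30.3, and naive libraries, at 37.96 to 60.0, lay with sham (-2.01, SE 0.55, adjusted p = 0.963 by edgeR). It kept a log2 fold change of -1.44 in contralateral 3 alone and of -1.72 relative to all genes with the GC trend removed, and it passed in 1 of 21 alternative settings, DESeq2's Wald test (adjusted p from 0.00181 to 1 over the settings). Tlr7, a receptor for single-stranded RNA, stood at 41.4, 75.2 and 113 CPM against 134 to 196 (-1.15, SE 0.45), and Tlr13, a receptor for bacterial ribosomal RNA, at 129, 135 and 208 against 191 to 316 (-0.73, SE 0.29). Both are AT-rich, at 41.4 and 41.5% GC. With the GC trend removed Tlr7 was at -0.55 and Tlr13 at -0.11 relative to all genes, and without that subtraction the sign of Tlr13 turned (0.11). Of 24 genes of the Toll-like receptor list 2 had an unadjusted p under 0.05, both lower, beside 2.07% of all genes. With the GC trend removed 1 was lower and 1 higher at that p. The list median was -0.19.

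Of 33 measured inflammatory and NF-kB target genes, 1 had an unadjusted p under 0.05 (Nlrp3), beside 4.86% of all genes. The list median was -0.06, with -0.60 in contralateral 3 alone. The cytokine and chemokine genes of the panel overlapped between groups: Tnf was at 145 to 302 CPM against 117 to 290, Ccl2 at 77.0 to 267 against 89.5 to 223, Ccl3 at 549 to 1341 against 627 to 1027, and Ccl4 at 179 to 515 against 235 to 412.5. Ccl12, another ligand of the monocyte receptor, was at 194 to 328 CPM against 198.5 to 742. For Ccl3, Ccl4 and Ccl12 contralateral 3 was the lowest of the 7 libraries. Immediate early genes, which respond to cell isolation, had a median of 0.25 over 23 genes and of -0.64 in contralateral 3 alone, where 15 of 23 lay below every sham library, beside 18.2% of genes.

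Medians of the antigen presentation and interferon lists lay near 0. The MHC class II list had a median of -0.20 over 15 genes. At an unadjusted p under 0.05, 2 of them were higher and 1 lower, beside 2.79% and 2.07% of all genes. H2-Aa was at 262, 269 and 304 CPM against 220, 846, 169.6 and 84.7, and H2-Ab1 at 745, 337 and 408 against 445.5, 1437, 277 and 121, so sham 2 was the highest library for both. The peptide-editing genes H2-DMa (log2 fold change 0.60, SE 0.28) and H2-Ob (0.85, SE 0.40) were the higher 2, and the class II regulator Ciita, at 0.57, 0 and 0.90 CPM against 0 to 61.4 with most reads in sham 2, the lower. The class I list had a median of 0.19 over 20 genes. There the peptide transporter gene Tap2 was at 315, 262 and 115 CPM against 71.9 to 135 (1.08, SE 0.42), the chaperone genes Calr and Canx went in opposite directions (0.68, SE 0.31, and -0.75, SE 0.31), and B2m overlapped at 683 to 1755 against 1515 to 1883 CPM. The interferon list had a median of -0.21 over 42 genes, which was 0.03 without contralateral 2, -0.32 without contralateral 1, -0.51 without contralateral 3 and 0.23 in contralateral 3 alone. It had 1 gene at an unadjusted p under 0.05, beside 4.86% of all genes. That gene was Ifi27l2a, at 135, 97.8 and 27.0 CPM against 25.2 to 43.9 (1.36, SE 0.57). For Ifi27l2a the sign turned in contralateral 3 alone (-0.30).

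Complement genes had a median of -0.09 over 18 genes. C1qb, a chain of the recognition molecule C1q, was at 8609, 6647 and 4518 CPM against 4773 to 5635, with contralateral 3 the lowest of the 7. C3ar1, the receptor for the fragment C3a, was at 187, 213 and 358 CPM against 330 to 448 (log2 fold change -0.64, SE 0.28, and -0.17 relative to all genes with the GC trend removed). C4b overlapped, at 3.80 to 51.4 against 10.9 to 97.1 CPM. The phagocytosis and lysosome list had 21 of 42 genes above 0, a median of -0.03 and no gene at an unadjusted p under 0.05. Over all genes 48.3% were above 0 and 4.86% had such a p.

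In TGF-beta signalling, which maintains microglial identity, 1 of 18 measured genes had an unadjusted p under 0.05, beside 4.86% of all genes. Smad4, the shared partner of the receptor-activated SMAD proteins, was at 3.23, 2.05 and 11.1 CPM against 46.4, 26.3, 30.1 and 28.9 in sham and 20.6 to 60.2 in naive libraries (log2 fold change -2.58, SE 0.87, adjusted p = 0.963 by edgeR). All contralateral libraries lay below all sham and naive libraries, and in contralateral 3 alone the value was -1.55. It passed DESeq2's Wald test, 1 of 21 alternative settings, with an adjusted p from 0.0276 to 1 over them. The receptor gene Tgfbr1 was at 322, 432 and 656 CPM against 635 to 678. The list median was -0.18.

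Nuclear genes for translation and respiration had medians slightly above 0, but not with GC and length trends removed. Relative to all genes the medians were then -0.10 (ribosomal) and -0.06 (respiratory chain). With the length trend alone removed they were -0.03 and 0.06. Of 57 cytosolic ribosomal protein genes 46 had a fold change above 0, where 48.3% of all genes did, and the median was 0.19. At an unadjusted p under 0.05 there were 4, all higher, beside 2.79% of all genes. In contralateral 3, 44 of 57 lay below every sham library, beside 18.2% of genes of at least 10 CPM. The median in contralateral 3 alone was -0.46, so the direction turned in that library. Relative to all genes the median was 0.07 without contralateral 1 and -0.42 in contralateral 3 alone. Rpl8 was at 740, 716 and 274 CPM against 256.5 to 321 (log2 fold change 1.00, SE 0.33), Rplp0 at 1284, 1456 and 576 against 579 to 808 (0.78, SE 0.30), and both signs turned in contralateral 3 alone. Many of these genes have near-identical pseudogenes, so their reads are assigned with uncertainty. The 55 nuclear genes of the respiratory chain had a median of 0.14 (-0.26 in contralateral 3 alone). At an unadjusted p under 0.05 there were 2, both higher, beside 2.79% of all genes. Groups did not overlap for 1 as higher and 4 as lower, beside 2.04% and 3.88% of all genes. In contralateral 3, 21 of the 55 lay below every sham library and 5 above, beside 18.2% and 16.7% of genes of at least 10 CPM. The oxidase subunit gene Cox4i1 was at 524, 567 and 175 CPM against 166 to 252 (1.06, SE 0.42, and -0.19 in contralateral 3 alone), and Uqcrh, of complex III, at 58.4, 118.7 and 55.7 against 32.8 to 45.3 (1.00, SE 0.42).

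In glycolysis and hypoxia, the median was 0.13 over 25 genes. Pdk1, a kinase that restrains pyruvate entry into mitochondria, was at 59.7, 36.3 and 68.6 CPM against 89.9 to 151 (log2 fold change -1.005, SE 0.45), and the glycolytic enzyme gene Aldoa at 536, 590 and 409 against 277 to 361 (0.67, SE 0.32). Neither overlapped between groups. Leaving out 1 contralateral library, or using contralateral 3 alone, turned the sign of every list median described, except those of the rod, mitochondrial, MHC class II, lysosome, TGF-beta and Toll-like receptor lists. In lipid handling, the median was -0.26 over 28 genes, and 0.07 without contralateral 2, -0.05 without contralateral 1 and -0.58 without contralateral 3. It held Lrp1, an endocytic receptor for Apoe, at 1456, 1512 and 600 CPM against 603 to 658 (0.91, SE 0.35). Fads1, a fatty acid desaturase, was at 28.1, 16.1 and 49.3 CPM against 60.7 to 100.6 (-1.40, SE 0.70). Lrp1 was below every sham library in contralateral 3, whereas Fads1 was below them in all 3.

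**Figure D4:**
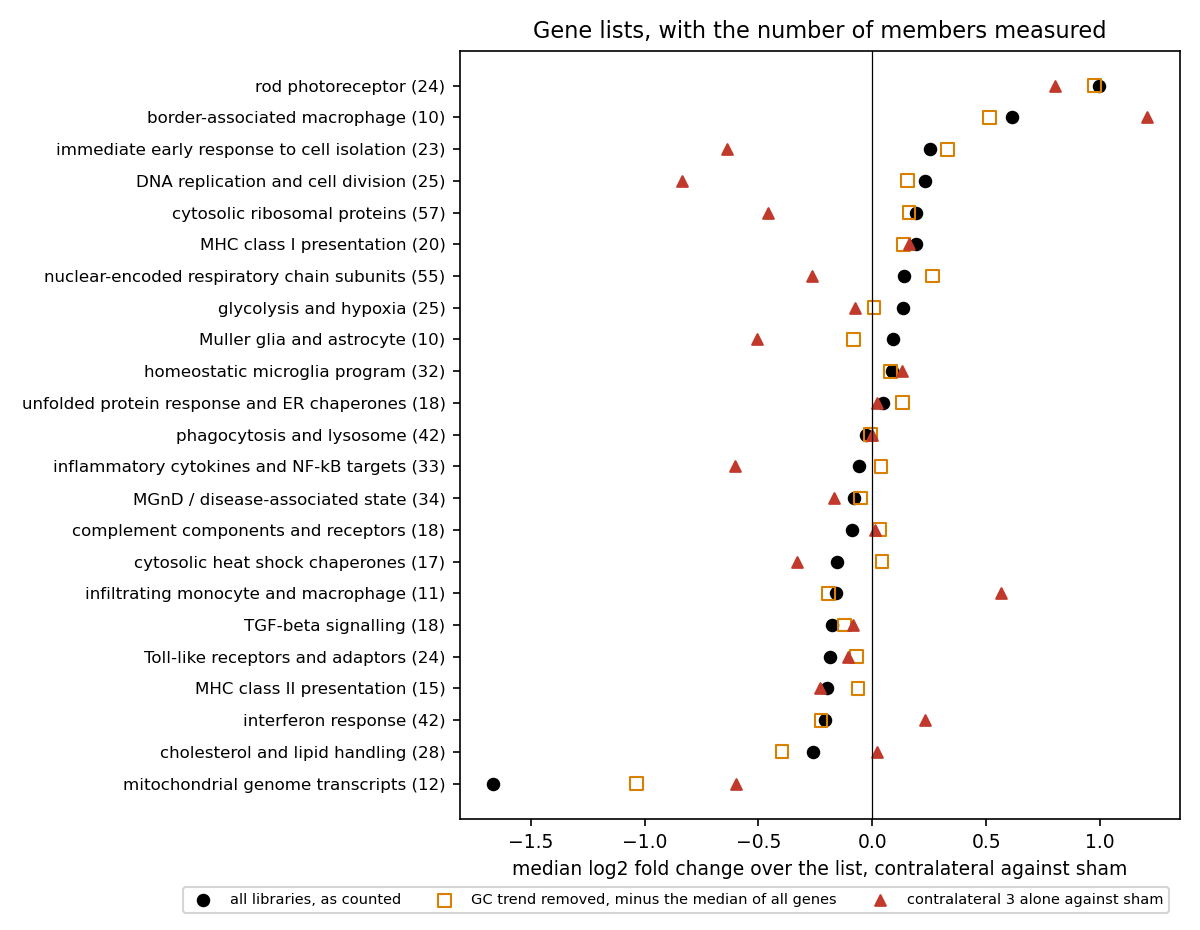
Median log2 fold change of contralateral against sham (horizontal axis) for gene lists with at least 10 measured members, given in brackets, for all libraries (black), with the GC trend removed and the median of all genes subtracted (orange), and for contralateral 3 alone (red). The rod list lies at 0.80 to 1.00 and the mitochondrial list at -1.67 to -0.60 in all 3 versions, while several other lists, among them the ribosomal, early response and proliferation lists, have the opposite sign in contralateral 3.

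Beyond the lists, the other genes with the lowest p and groups that did not overlap were largely carried by contralateral 2 when higher. Cep164, a gene of the centriole's appendages, was at 69.2, 214.7 and 27.7 CPM against 5.24 to 24.6 (log2 fold change 3.27, SE 0.80), Rnf215, a ring finger gene, at 94.7, 153.7 and 26.6 against 5.55 to 19.4 (2.76, SE 0.72), and Mrpl37, of the mitochondrial ribosome, at 50.8, 215 and 36.5 against 13.7 to 29.0 (2.24, SE 0.64). Bicra, a subunit of a chromatin remodelling complex, was the most even, at 147, 173 and 85.2 CPM against 32.6 to 67.7 (1.44, SE 0.41). Each of these 4 passed DESeq2's Wald test only, 1 of 21 alternative settings, with adjusted p over the settings from 0.00256, 0.0118, 0.0494 and 0.0342 to 1, in that order. Without contralateral 2 the log2 fold changes were 2.12, 2.11, 1.00 and 1.18. Paqr3, Egf, Rsph10b and the cyclin gene Ccnd2 reached 103, 67.2, 72.0 and 147 CPM in contralateral 2, but 12.3 CPM at most in the other contralateral libraries and 0.83 CPM at most in sham. Of these Egf and Paqr3 passed DESeq2's Wald test (adjusted p = 4.06e-06 and 0.00016), and Egf and Ccnd2 passed edgeR's test with no filter on low counts.

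Downwards, 10 genes of at least 10 CPM were named for the lowest p with groups that did not overlap. Of these 10, 3 had reads in every sham library and none in any contralateral library. The share of all genes with this pattern is not given here. Wfdc17, a small secreted protein of activated macrophages, was at 2.57, 27.7, 8.80 and 5.80 CPM in sham, at least 101.8-fold higher than in contralateral (floor of 3 reads over the group), with bounds of 51.9 without sham 2 and 43.4 without contralateral 3. In naive libraries it was at 0 to 3.58 CPM, so the contralateral retinas lay with naive ones. Cep19, a centriole gene, was at 8.81 to 18.0 CPM in sham (at least 102.2-fold) and at 0.74 to 18.3 CPM in naive libraries. Tab3, an adaptor of the kinase TAK1, was at 3.64 to 16.6 CPM in sham (at least 112.5-fold) and at 0.40 to 18.7 CPM in naive libraries. Calhm6 was at 1.57 to 17.3 CPM in sham and had 3 reads, all in contralateral 3. These 4 genes passed DESeq2's Wald test, and Wfdc17 passed edgeR's test with no filter on low counts (lowest adjusted p 4.52e-05). Without contralateral 3 the bounds were 43.6 for Cep19 and 47.9 for Tab3.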

How the data were processed

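Full-length RNA-seq of sorted retinal microglia was read from 14 per-library tables. Per the file headers, the authors deposited expected counts (estimated reads per gene), with TPM and FPKM values scaled to length and library size. FPKM per library was also deposited in 1 table, per the file headers. Salmon 1.4.0, R 4.0.3, DESeq2 1.30.1 and mm10 stand in the submitters' processing notes without roles; no source used here names the tool behind the tables. Expected counts were rounded and tested with edgeR 4.0.16 in R 4.3.3 (TMM, filterByExpr with minimum count 10, robust quasi-likelihood F test, 14 libraries, 1 coefficient per group, 10 residual degrees of freedom, Benjamini-Hochberg threshold 0.05). SMART-Seq2 reads carry no molecular identifiers, so read intervals and floors cover counting error only.

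Genes named are those that passed, the 10 lowest p in each direction of at least 10 CPM with groups that did not overlap, up to 3 lowest p of each list with at least 5 genes tested, the sort markers and a state panel; further list members were chosen after their values were seen. Members and lists were chosen with earlier results of these data known. GC content was the median over a gene's GENCODE M21 transcripts, and length was that in the deposited tables. Alternatives used other scaling, filters, tests (DESeq2 1.42.0, limma 3.58.1 with FPKM pseudocount 1), covariates, trends removed and libraries left out. The test was checked on simulated data. It missed most lowered genes at every fold tried and most raised genes at all but the largest fold. Thus 0 calls do not show that no gene differed, even by a large fold. Values of 1 rod gene are not reported here.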

Additional observations from a re-analysis of the deposited data

Results flagged for a closer look

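In 9 of 86 sets of 4 sham values checked, 1 library stood apart from the other sham libraries by Dixon's criterion. Chance meets it in about 1 of 20 sets of independent, normally spread values. The sets checked come from the same libraries, and for Egf and Rsph10b the other sham libraries were at 0. The count therefore cannot be judged by that rate. Sham 1 was highest for mt-Co2 (812.3 CPM) and mt-Cytb (963.6 CPM), so the sham mean of both lay above the level of the other sham libraries. Sham 2 was highest for Cep164 (24.65 CPM), Cep19 (17.98 CPM), Guca1a (49.3 CPM) and Egf (0.07023 CPM). Sham 3 was highest for Rplp0 (808.2 CPM) and Rsph10b (0.07587 CPM). For the TGF-beta list, the lowest sham mean log2 CPM relative to naive was -0.0001846.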

How the results depend on the processing

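edgeR's test called 0 genes under all settings tried except those named here. DESeq2's Wald test called 80 (25 higher, 55 lower), and no filter on low counts gave 22 (10 higher, 12 lower). Leaving out 1 library at a time gave 0 to 21 calls (0 to 1 higher, 0 to 20 lower), with calls only without contralateral 3; the cause was not tested. With the replicate number as a block (replicate block) 0 genes were called, with 481 at an unadjusted p under 0.05. Deviations from the group means correlated at -0.0171, -0.0169 and -0.0457 between contralateral and sham libraries of the same number. Between contralateral and microbead libraries of the same number they correlated at 0.0176, -0.0393 and 0.087. With so few libraries, and the GC trend in contralateral 1 and 2, these values cannot decide whether a number marks a shared mouse. Among 59 named genes and 21 settings, 1188 values kept direction and side of the threshold, 35 passed it and 15 reversed. The GC and length removal and the use of contralateral 3 alone were chosen after seeing the data. With the GC trend removed, and before the median of all genes (0.22) was subtracted, these turned: mt-Nd6 (0.17), mt-Atp8 (0.57), mt-Rnr1 (0.0729), Tlr13 (0.11) and C3ar1 (0.0507). Relative to it only mt-Atp8 did (0.35). With GC and length removed, Tlr13 (0.18) and C3ar1 (0.12) turned, though not relative to all genes (-0.01 and -0.07). In contralateral 3 alone these turned: Lrp1 (-0.0576), Canx (0.0119), Ifi27l2a (-0.30), Cox4i1 (-0.19), Rpl8 (-0.0552), Rplp0 (-0.14), Trem2 (-0.28) and Glul (-0.10). The cause was not tested. Of the list medians 46 were counted as moved, in 14 of 25 lists, and 479 were not, by a rule that does not follow sign alone. Medians not counted could still change sign. With limma voom with quality weights the MHC class II median went from -0.20 to 0.35. The immediate early median went from 0.25 to -0.105 there.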
